A study of Mus musculus with 6 samples.

Results

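The genes described here are 10 transcripts of the mouse p53 pathway, chosen by symbol from the deposited gene counts: Cdkn1a, Mdm2, Rrm2b, Ccng1, Sesn1, Sesn2, Bbc3, Trp53inp1, Btg2 and Gdf15. They are 10 of 24062 genes in the counts, and 9 of them passed the filter on low counts that left 13185 genes for testing. Gdf15 did not. RNA came from NIH3T3 cells, an established mouse fibroblast line, in 6 libraries of 4 groups. One group received siRNA against SPT6, a histone chaperone and elongation factor of RNA polymerase II encoded by Supt6, and then interferon beta (IFN-beta) at 100 units/ml for 4 h (2 libraries, replicates 1 and 2). Its counterpart received negative control siRNA and the same IFN-beta (2 libraries). The remaining libraries were untreated cells, 1 with SPT6 siRNA and 1 with control siRNA. In every group cells had carried siRNA for 48 h before the treatment, so each comparison is between transfected cells. A single siRNA against SPT6 was used, per the labels' protocols, so an off-target effect of it cannot be told apart from loss of SPT6. The untreated libraries are titled 0 h, so 4 h in culture and IFN-beta cannot be told apart.

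The transcription factor p53 is stabilised by DNA damage and other stress and binds as a tetramer to a pair of short, related decamers in or near its target genes. Its targets halt the cell cycle, repair or supply DNA precursors, restrain growth signalling, promote cell death, and, through Mdm2, degrade p53 itself. NIH3T3 cells are known to keep p53 but to lack the Cdkn2a locus, whose Arf product restrains Mdm2. In the counts Cdkn2a stood at 0 in each of the 6 libraries, where 3 counts, the limit that a count of 0 allows, would be 0.178 to 0.36 CPM. CPM are counts scaled to a common library size with TMM factors.

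Libraries held 7935961 to 17596498 counts in genes, and in each pair of the same treatment and replicate number the SPT6 siRNA library was the shallower one. Supt6 stood at 108 and 88.4 CPM with SPT6 siRNA and IFN-beta, against 177 and 189 CPM with control siRNA and IFN-beta, and at 101 CPM with SPT6 siRNA against 175 CPM with control siRNA in untreated cells. All 10 fibroblast markers were tested, with summed levels of 14468 to 16682 CPM with SPT6 siRNA and 19385 to 23748 CPM with control siRNA under IFN-beta. Of 7 epithelial markers Epcam and Krt5 were at 0 in every library, and the list summed to at most 2.78 CPM; 5 endothelial markers summed to at most 5.91 CPM. The 7 macrophage markers in the counts summed to 16.4 to 19.0 CPM with SPT6 siRNA and IFN-beta, against 7.95 to 9.19 CPM with control siRNA and IFN-beta. In the untreated libraries they summed to 15.1 CPM with SPT6 siRNA and 11.0 CPM with control siRNA. Cd68 made up most of these gaps, at 7.75 and 9.92 CPM with SPT6 siRNA and IFN-beta, against 2.71 and 2.20 CPM with control siRNA and IFN-beta. Of 4 tested, 3 lay above 0 under IFN-beta and Lyz2 lay at -0.57. In the untreated pair Cd68 was at 6.47 CPM with SPT6 siRNA and 2.38 CPM with control siRNA, while Cd14 (5.40 and 5.92 CPM) and Csf1r (1.44 and 1.73 CPM) were lower with SPT6 siRNA. The defining marker Ptprc had 0 to 3 counts per library. The part of these markers in the differences below was not tested. Whether replicates came from separate cultures is not in the labels; p-values here reflect library-to-library spread alone, possibly a technical one.

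Promoter sequence was given by RefSeq (GRCm38.p6) for 8 of the 10 genes, in 13 windows. The 250 bases before each start were searched for the p53 decamer, which reads alike on both strands. It lay in 4 of the 13 windows (30.8%) and in 7.13% of 32851 promoter windows of the genome. A pair of decamers spaced by 0 to 13 bases lay in 1 of the 13 windows, a window of Cdkn1a where 12 bases part them, and in 0.0639% of all windows. The other window of Cdkn1a held 0 decamers. The word TATAAA, searched on both strands, lay in 0 of 13 windows and in 12.4% of all. Bases G and C made up 54.0% to 81.6% of the members' windows, beside a median of 52.4% over all windows. The part of base content in these shares was not tested, and some windows of Bbc3 overlap. The 4 windows with the decamer are shown 5′ to 3′ up to the first annotated exon, with the decamers in capitals. A match here describes letters, not binding, and near matches were not counted. In Cdkn1a 1 such near match, tgacatgttc, directly follows the second decamer. Only its first base, t, departs from the search, which asked for A or G there. The counted pair is thus not the only possible pairing in that window. Cdkn1a is chr17:29090729-29090975 (plus strand), Mdm2 chr10:117710759-117711008 (minus), Ccng1 chr11:40755312-40755536 (minus) and Sesn1, before its internal start, chr10:41887189-41887438 (plus).
Cdkn1a: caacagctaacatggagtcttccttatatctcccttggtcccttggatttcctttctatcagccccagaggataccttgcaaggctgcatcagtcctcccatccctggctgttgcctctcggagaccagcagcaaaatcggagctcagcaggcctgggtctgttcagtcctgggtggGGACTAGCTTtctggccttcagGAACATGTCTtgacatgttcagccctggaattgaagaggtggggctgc
Mdm2: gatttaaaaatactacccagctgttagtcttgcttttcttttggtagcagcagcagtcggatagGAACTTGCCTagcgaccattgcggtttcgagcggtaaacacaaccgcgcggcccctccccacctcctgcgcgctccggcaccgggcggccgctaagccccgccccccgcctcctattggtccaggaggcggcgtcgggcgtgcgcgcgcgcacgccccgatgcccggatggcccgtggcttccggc
Ccng1: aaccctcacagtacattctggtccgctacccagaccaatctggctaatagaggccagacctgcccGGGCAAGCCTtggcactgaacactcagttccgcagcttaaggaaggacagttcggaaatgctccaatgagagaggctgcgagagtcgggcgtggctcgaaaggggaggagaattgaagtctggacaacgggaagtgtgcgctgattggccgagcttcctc
Sesn1: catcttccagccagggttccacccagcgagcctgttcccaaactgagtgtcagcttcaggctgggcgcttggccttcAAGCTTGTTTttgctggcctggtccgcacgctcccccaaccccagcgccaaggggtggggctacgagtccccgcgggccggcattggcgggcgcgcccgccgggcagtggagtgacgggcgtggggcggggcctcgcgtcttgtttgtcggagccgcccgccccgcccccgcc

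The 10 genes spanned a wide range of levels. Divided by the length of all annotated exons, Ccng1 averaged 133 CPM per kb ± 16.5 (SD over the 6 libraries), and its lowest library, at 115, lay above every library of Cdkn1a, which averaged 18.4 ± 3.91 CPM per kb. After Cdkn1a the order was Mdm2 (15.1), Trp53inp1 (13.1), Sesn1 (9.16), Btg2 (8.50), Sesn2 (5.57) and Rrm2b (2.89 CPM per kb), and each of these neighbours overlapped the next over the 6 libraries. Bbc3, at 1.25 CPM per kb with a highest library of 2.03, lay below every library of Rrm2b. Gdf15, a stress-induced cytokine gene, had 1 count in SPT6 siRNA IFN-beta replicate 2 and 1 in control IFN-beta replicate 1, and 0 in the other four libraries, so no difference in it was detectable at this depth.

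**Figure D1:**
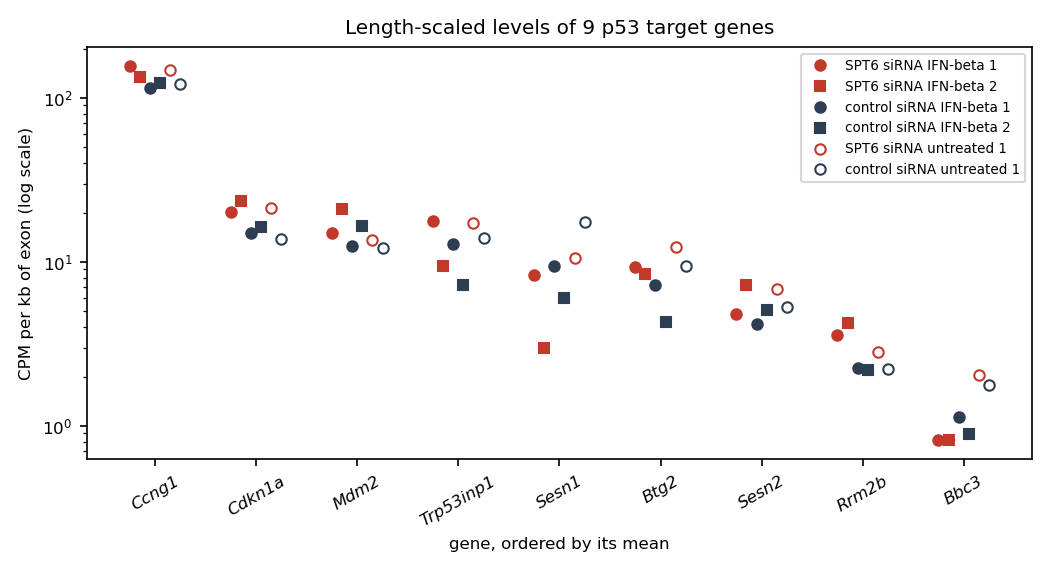
Levels of the 9 tested genes in CPM per kb of annotated exon on a log axis, with 1 point per library; red is SPT6 siRNA, dark blue control siRNA, filled IFN-beta and open untreated, circles replicate 1 and squares replicate 2. Ccng1 lies above the others and Bbc3 lies lowest, while Sesn1 spans the widest range, from 2.97 to 17.6 CPM per kb.

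The replicated comparison asked how SPT6 siRNA bears on these transcripts in IFN-beta treated cells. Most lay higher with SPT6 siRNA, with Rrm2b, Btg2 and Cdkn1a farthest from 0, while Sesn1 and Bbc3 lay lower. None passed the test over all genes in the fit without the replicate number (quasi-likelihood test of edgeR, p adjusted after Benjamini and Hochberg, threshold 0.05): 0 of 9 members, beside 0% of 13185 genes. The smallest adjusted p of any gene was 0.122. At an unadjusted p under 0.05, 2 of 9 members, Cdkn1a and Rrm2b, were higher, against 7.36% of all genes, and 0 were lower, against 4.31%. Log2 differences were above 0 for 7 of 9 members, against 48% of all genes, with a median of 0.37 among members and -0.02 among all genes. Groups did not overlap for 5 members, 4 higher (22.7% of all genes) and 1 lower (21.3%). The members and lists were chosen with earlier results of these data known, so shares set beside all genes are descriptions here and below. Fits with a replicate block did call members, as given in the closing sections.

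Among genes that halt the cell cycle, Cdkn1a encodes p21, an inhibitor of cyclin-dependent kinases (chromosome 17, 29090976 to 29100727, plus strand, GRCm38). It stood at 71.7 and 84.1 CPM with SPT6 siRNA and IFN-beta, against 53.2 and 58.2 CPM with control siRNA and IFN-beta. Both SPT6 siRNA libraries lay above both control libraries. The log2 difference was 0.48 ± 0.18 (SE; 95% interval 0.05 to 0.91; edgeR adjusted p = 0.388). Ccng1, for cyclin G1, which directs a phosphatase to Mdm2 (chromosome 11, 40748552 to 40755311, minus strand), stood at 552 and 472 CPM with SPT6 siRNA, against 403 and 436 CPM with control siRNA. These groups did not overlap either, with a log2 difference of 0.29 ± 0.19 (interval -0.16 to 0.73; edgeR adjusted p = 0.574), and 0.16 without SPT6 siRNA IFN-beta replicate 1. Btg2, an antiproliferative gene that also responds early to growth signals (chromosome 1, 134075170 to 134079120, minus strand), stood at 25.5 and 23.1 CPM with SPT6 siRNA, against 19.9 and 11.9 CPM with control siRNA. Its groups were apart as well, although control replicate 1 was nearer to the SPT6 siRNA libraries than to control replicate 2. The log2 difference was 0.62 ± 0.28 (interval -0.05 to 1.29; edgeR adjusted p = 0.447), and it was 1.04 without control IFN-beta replicate 1 and 0.29 without control replicate 2.

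**Figure D2:**
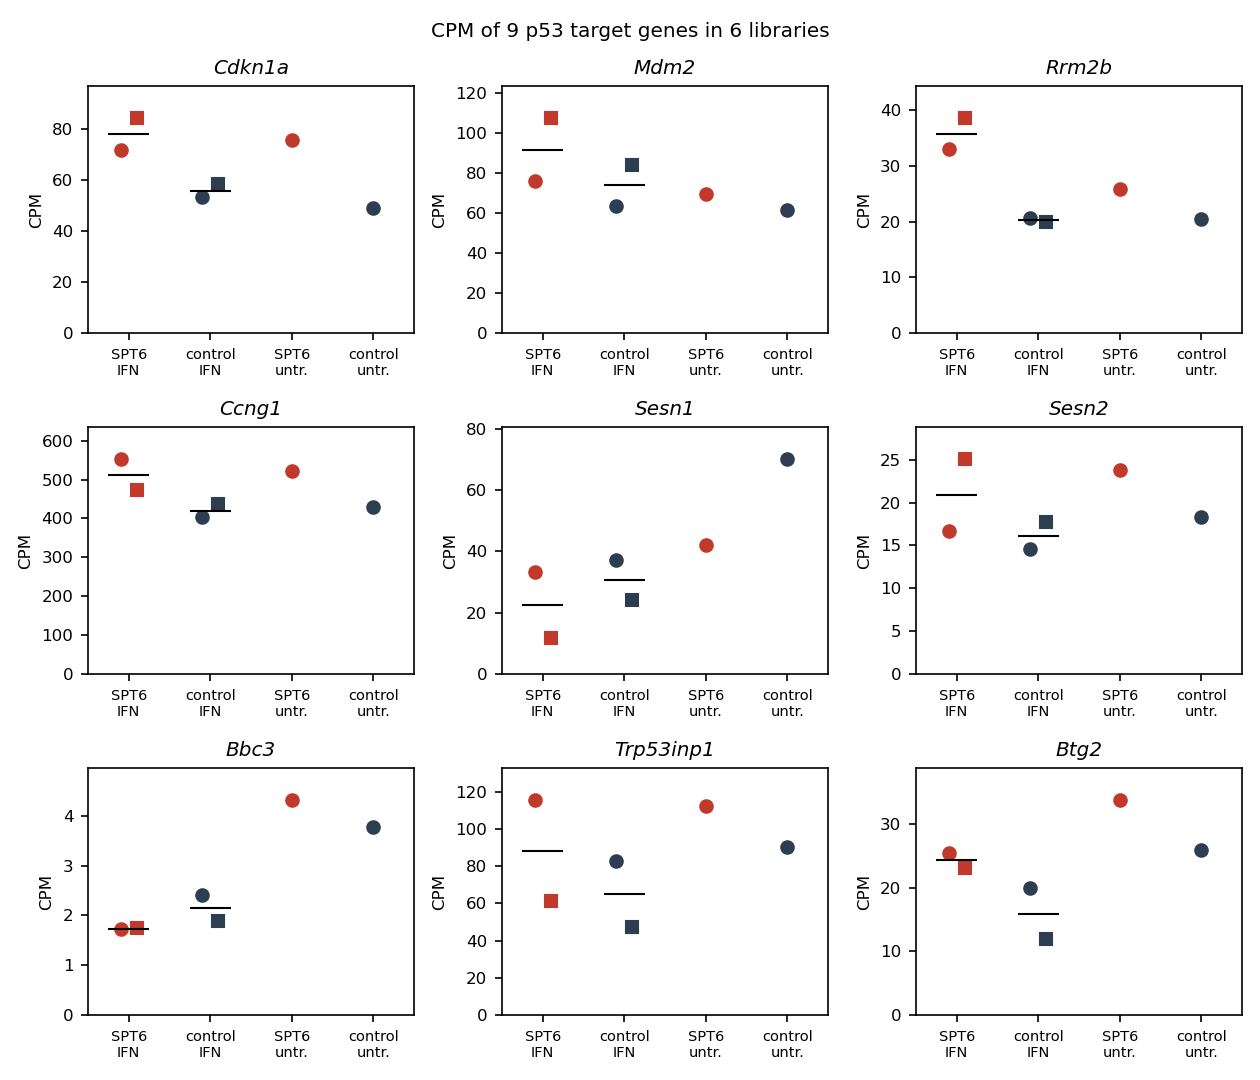
CPM of the 9 tested genes on linear axes from 0, with 1 point per library (circles replicate 1, squares replicate 2; red SPT6 siRNA, dark blue control siRNA; IFN the IFN-beta groups, untr. untreated) and a line at the mean of each IFN-beta group (n = 2). Under IFN-beta both SPT6 siRNA points lie above both control points for Cdkn1a, Rrm2b, Ccng1 and Btg2, and both lie below for Bbc3.

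Rrm2b encodes the p53-inducible small subunit of ribonucleotide reductase, which supplies deoxynucleotides outside S phase (chromosome 15, 37923952 to 37961318, minus strand). It stood at 32.9 and 38.5 CPM with SPT6 siRNA and IFN-beta, against 20.7 and 19.9 CPM with control siRNA and IFN-beta. The lowest SPT6 siRNA library was well above both control libraries, which lay close together. The log2 difference of 0.81 ± 0.19 (interval 0.36 to 1.27) had an edgeR adjusted p = 0.309 and ranked 176 by p among 13185 genes. Its S-phase paralog Rrm2 lay the other way within each replicate number, at 55.1 and 98.9 CPM with SPT6 siRNA, against 68.1 and 157 CPM with control siRNA (log2 difference -0.55 ± 0.48; edgeR adjusted p = 0.697). Scaled by exon length, Rrm2b was 0.181 and 0.118 times Rrm2 with SPT6 siRNA, against 0.0923 and 0.0385 times with control siRNA, so both ratios with SPT6 siRNA lay above both with control siRNA. The large subunit gene Rrm1 stood at 171 and 176 CPM with SPT6 siRNA, against 200.5 and 297 CPM with control siRNA (-0.52 ± 0.22; edgeR adjusted p = 0.430).

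Mdm2, the ubiquitin ligase gene of the p53 feedback loop (chromosome 10, 117688875 to 117710758, minus strand), stood at 76.0 and 107 CPM with SPT6 siRNA and IFN-beta, against 63.6 and 84.0 CPM with control siRNA and IFN-beta. The groups overlapped, and replicate 2 was the higher one in each. The log2 difference was 0.31 ± 0.24 (interval -0.26 to 0.88; edgeR adjusted p = 0.636), and it was 0.03 without SPT6 siRNA IFN-beta replicate 2. Leaving out control replicate 1 gave 0.14, and leaving out either of the other two libraries gave 0.53. The p53 gene itself, Trp53, stood at 71.6 and 95.2 CPM with SPT6 siRNA, against 71.3 and 98.0 CPM with control siRNA (log2 difference -0.02, interval -0.58 to 0.53). Scaled by exon length Mdm2 was 0.845 and 0.896 times Trp53 with SPT6 siRNA, against 0.710 and 0.683 times with control siRNA. Mdm4, whose product binds and inhibits p53, stood at 76.4 and 69.8 CPM with SPT6 siRNA, against 78.8 and 82.3 CPM with control siRNA (-0.14 ± 0.16; edgeR adjusted p = 0.774).

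The sestrins restrain growth signalling through mTORC1, and the 2 in the list lay in opposite directions. Sesn1 (chromosome 10, 41809935 to 41908424, plus strand) stood at 33.3 and 11.8 CPM with SPT6 siRNA and IFN-beta, against 37.3 and 24.2 CPM with control siRNA and IFN-beta. Replicate 2 was the lower one in each group, and the groups overlapped. The log2 difference of -0.45 ± 0.52 (interval -1.76 to 0.86; edgeR adjusted p = 0.776) turned to 0.11 once SPT6 siRNA IFN-beta replicate 2 was left out, and leaving out its replicate 1 gave -1.39. It was -0.10 without control replicate 1 and -0.73 without control replicate 2. Sesn2 (chromosome 4, 132492032 to 132510501, minus strand) stood at 16.7 and 25.1 CPM with SPT6 siRNA, against 14.6 and 17.7 CPM with control siRNA. Its groups overlapped too (0.37 ± 0.26, interval -0.26 to 1.002; edgeR adjusted p = 0.613), and the difference was 0.04 without SPT6 siRNA IFN-beta replicate 2, while leaving out its replicate 1 gave 0.62. Sesn3, a sestrin gene outside the 10, stood at 76.2 and 28.4 CPM with SPT6 siRNA, against 82.0 and 43.3 CPM with control siRNA (-0.26 ± 0.54; edgeR adjusted p = 0.880).

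Bbc3 and Trp53inp1 act in cell death. Bbc3 encodes PUMA, a BH3-only protein that starts mitochondrial apoptosis (chromosome 7, 16308393 to 16318205, plus strand). It had 17 and 20 counts, 1.73 and 1.74 CPM, with SPT6 siRNA and IFN-beta, against 32 and 32 counts, 2.41 and 1.90 CPM, with control siRNA and IFN-beta. The groups did not overlap, but lay a small distance apart at these counts (log2 difference -0.30 ± 0.38, interval -1.21 to 0.60; edgeR adjusted p = 0.792). The difference was -0.12 without control IFN-beta replicate 1 and -0.47 without control replicate 2. Trp53inp1, for a nuclear protein that promotes p53-dependent death and autophagy (chromosome 4, 11156431 to 11174379, plus strand), stood at 115 and 61.2 CPM with SPT6 siRNA, against 82.9 and 47.1 CPM with control siRNA. Replicate 2 was the lower one in each group and the groups overlapped. The log2 difference of 0.44 ± 0.39 (interval -0.54 to 1.42; edgeR adjusted p = 0.702) was -0.10 without SPT6 siRNA IFN-beta replicate 1, while leaving out its replicate 2 gave 0.82. It was 0.92 without control replicate 1 and 0.09 without control replicate 2.

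**Figure D3:**
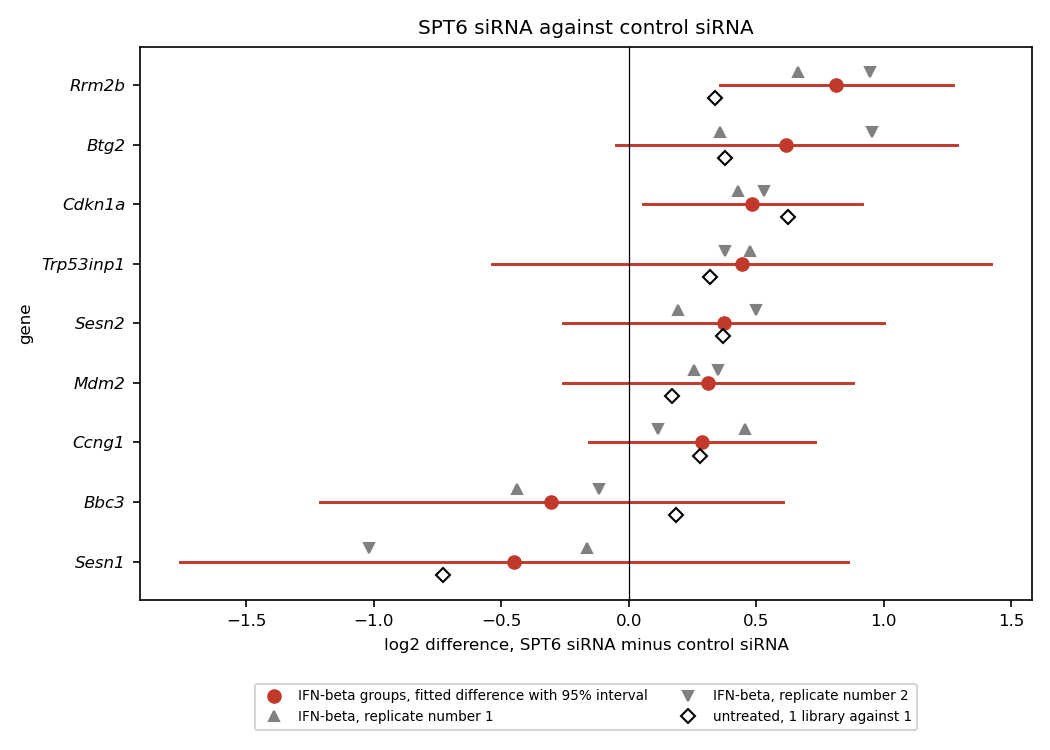
Log2 differences, SPT6 siRNA minus control siRNA, of the 9 tested genes: red points and bars are the fitted difference under IFN-beta with its 95% interval, grey triangles the difference within replicate number 1 (up) and 2 (down), and open diamonds the untreated pair of libraries. The intervals of Rrm2b and Cdkn1a lie above 0, and for Sesn1 all of the 3 single differences lie below 0.

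In untreated cells 1 library stood against 1, without a replicate check, and the values lay mostly on the same side. Cdkn1a was at 75.5 CPM with SPT6 siRNA against 48.9 CPM with control siRNA, a log2 ratio of 0.63 (95% counting interval 0.46 to 0.79, which covers counting error only). Rrm2b was at 25.8 CPM with SPT6 siRNA against 20.4 CPM with control siRNA (0.34, counting interval 0.07 to 0.61). Ccng1 was at 521 CPM with SPT6 siRNA against 429 CPM with control siRNA (0.28, counting interval 0.22 to 0.34). Thus for Cdkn1a, Rrm2b and Ccng1 all 3 SPT6 siRNA libraries lay above all 3 control libraries, 3 of 9 members against 12.2% of all genes; below, the count was 0 of 9 against 9.32%.

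Sesn1 was the only tested member below 0 in that pair, at 42.2 CPM with SPT6 siRNA against 70.1 CPM with control siRNA (log2 ratio -0.73, counting interval -0.92 to -0.55). Ratios of the other five members ran from 0.17 for Mdm2 to 0.38 for Btg2, and the counting interval of Bbc3 (0.19, -0.48 to 0.85) held 0. Across the 3 pairs of the same treatment and replicate number, 7 of 9 members were higher in every SPT6 siRNA library than in its control (25.8% of all genes): Cdkn1a, Mdm2, Rrm2b, Ccng1, Sesn2, Trp53inp1 and Btg2. Sesn1 was lower in every pair (1 of 9, against 28.3%). The labels do not say what a replicate number shares.

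The IFN-beta comparison with SPT6 siRNA asked which members responded to the cytokine under the knockdown. Bbc3 stood lowest, at 1.73 and 1.74 CPM with IFN-beta against 4.32 CPM untreated (17 and 20 counts against 36), a log2 difference of -1.31 ± 0.45 (interval -2.38 to -0.24; edgeR adjusted p = 0.799). Both IFN-beta libraries of Sesn1 lay below the untreated one, at 33.3 and 11.8 CPM against 42.2 CPM (-0.91 ± 0.62; edgeR adjusted p = 0.900), as did both of Btg2, at 25.5 and 23.1 CPM against 33.7 CPM (-0.47 ± 0.34; adjusted p = 0.900). Rrm2b lay on the other side, at 32.9 and 38.5 CPM with IFN-beta against 25.8 CPM untreated (0.47 ± 0.24; edgeR adjusted p = 0.886), and so did Mdm2 (0.41 ± 0.30; adjusted p = 0.900). The response of Sesn1 was -1.84 without IFN-beta replicate 1 and -0.36 without replicate 2, and that of Mdm2 0.63 and 0.12. Cdkn1a stood at 71.7 and 84.1 CPM with IFN-beta against 75.5 CPM untreated, on either side of it (0.04, interval -0.48 to 0.57). No member was called, 0 of 9 beside 0.0455% of all genes. At an unadjusted p under 0.05 the count was 1 of 9 (5.85% of all genes), 0 higher (3.84%) and 1 lower (2.01%). Differences were above 0 for 3 members and below 0 for 6, against 50.7% and 49.3% of all genes. Both IFN-beta libraries lay above the untreated one for 2 members (34.5% of all genes) and below it for 3 (34.6%), and the median log2 difference was -0.18 over members and 0.00 over all genes.

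With control siRNA the same comparison again put Sesn1, Bbc3 and Btg2 lowest, while the highest members differed. Sesn1 stood at 37.3 and 24.2 CPM with IFN-beta against 70.1 CPM untreated, a log2 difference of -1.19 ± 0.60 (interval -2.71 to 0.33; edgeR adjusted p = 0.664), with both IFN-beta libraries below the untreated one. Bbc3 stood at 2.41 and 1.90 CPM with IFN-beta against 3.78 CPM untreated (-0.81 ± 0.43; edgeR adjusted p = 0.665). Btg2 stood at 19.9 and 11.9 CPM with IFN-beta against 25.9 CPM untreated (-0.71 ± 0.33; edgeR adjusted p = 0.635), a difference of -1.13 without IFN-beta replicate 1 and -0.38 without replicate 2. Sesn1, Bbc3 and Btg2 were the 3 of 9 members for which all 4 IFN-beta libraries lay below both untreated libraries, against 13.4% of all genes. Above both, the count was 0, against 13.9%. For Btg2 this was a near tie, 25.5 CPM in SPT6 siRNA IFN-beta replicate 1 against 25.9 CPM in the untreated control library. Bbc3 had only 17 to 46 counts per library.

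Mdm2 and Cdkn1a were the 2 members above 0 with control siRNA. Mdm2 stood at 63.6 and 84.0 CPM with IFN-beta against 61.5 CPM untreated. Cdkn1a stood at 53.2 and 58.2 CPM with IFN-beta against 48.9 CPM untreated. Rrm2b, the highest member with SPT6 siRNA, stood with control siRNA at 20.7 and 19.9 CPM with IFN-beta against 20.4 CPM untreated, log2 ratios of 0.02 and -0.03. Ccng1 was likewise at 403 and 436 CPM with IFN-beta against 429 CPM untreated (-0.03, interval -0.57 to 0.51). Trp53inp1 was at 82.9 and 47.1 CPM with IFN-beta against 90.2 CPM untreated (-0.47 ± 0.47; edgeR adjusted p = 0.804), a difference of -0.95 without IFN-beta replicate 1 and -0.12 without replicate 2. No member was called, 0 of 9 beside 0.137% of all genes, and at an unadjusted p under 0.05 the count was 0 of 9 against 8.24% (5.29% higher, 2.94% lower). Differences were above 0 for 2 members and below 0 for 7, against 49.4% and 50.6% of all genes. Both IFN-beta libraries lay above the untreated one for 2 members (35.2%) and below it for 5 (38.1%). Each untreated group is a single library, so its spread is taken to be that of the IFN-beta groups, and both untreated libraries carry replicate number 1. Some signs turned with 1 library left out. With SPT6 siRNA the response of Trp53inp1 was -0.35 over all libraries and 0.02 without IFN-beta replicate 2, and that of Sesn2 was -0.18 over all and 0.07 without replicate 1. Those of Cdkn1a (0.04) and Ccng1 (-0.03) were -0.09 and 0.07 without replicate 2. With control siRNA the response of Ccng1 was 0.02 without IFN-beta replicate 1, and that of Rrm2b was 0.02 without replicate 2 and also without SPT6 siRNA IFN-beta replicate 1.

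**Figure D4:**
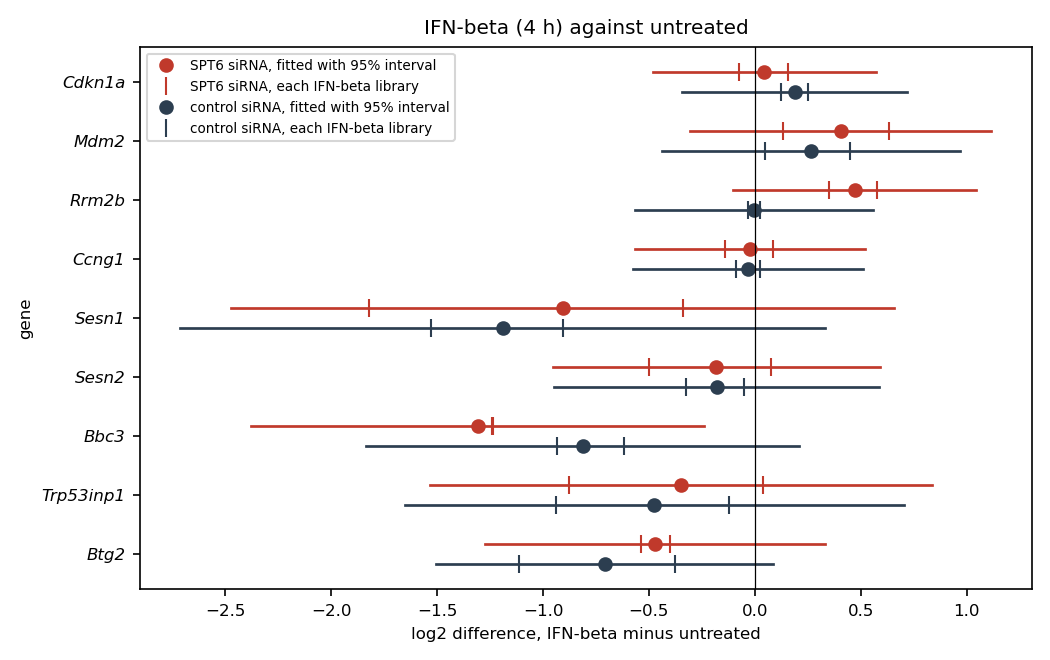
Log2 differences, IFN-beta minus untreated, of the 9 tested genes with SPT6 siRNA (red, upper of each pair) and control siRNA (dark blue, lower): points and bars are fitted differences with 95% intervals, ticks the single IFN-beta libraries against the untreated one. Only the interval of Bbc3 with SPT6 siRNA lies wholly below 0, and Sesn1 lies below 0 with both siRNAs.

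The difference of responses asked whether SPT6 siRNA altered how a member responded to IFN-beta. It ran from -0.50 for Bbc3 to 0.48 for Rrm2b on the log2 scale, and 0 of 9 members were called, beside 0% of all genes. At an unadjusted p under 0.05 the count was 0 of 9, against 0.379% of genes (0.296% higher, 0.0834% lower). It was above 0 for 6 members and below 0 for 3, against 49% and 51% of all genes. DESeq2, likewise without the replicate number, called 0 of 9 members in this and the preceding tests. Of all genes it called 0% here, 0.47% for SPT6 siRNA under IFN-beta, 0.978% for IFN-beta with SPT6 siRNA and 1.55% with control siRNA. For Rrm2b the interval was -0.32 to 1.27 and for Cdkn1a -0.89 to 0.60, so differences of either sign lie within both.

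Other genes of the pathway were taken by list, with SPT6 siRNA under IFN-beta. Of 34 other p53 targets listed, 29 were tested, 0 were called, and 18 were above 0 (48% of all genes were), with a median log2 difference of 0.07. At an unadjusted p under 0.05, 2 of 29, Zmat3 and Tnfrsf10b, were higher (7.36% of all genes) and 0 lower (4.31%). In the untreated pair 16 of these 29 were above 0 (median 0.06). Zmat3, for an RNA-binding protein, stood at 99.8 and 163 CPM with SPT6 siRNA, against 80.2 and 91.9 CPM with control siRNA (0.61 ± 0.25; edgeR adjusted p = 0.425). Bax, a pore-forming protein of apoptosis, stood at 43.7 and 50.1 CPM with SPT6 siRNA, against 40.3 and 51.5 CPM with control siRNA (0.03, interval -0.45 to 0.51). The death receptor gene Fas stood at 20.1 and 12.4 CPM with SPT6 siRNA, against 19.0 and 10.8 CPM with control siRNA (0.13 ± 0.36). Phlda3, an inhibitor of AKT, lay at -0.13 ± 0.19 and the kinase gene Plk2 at -0.34 ± 0.16 (edgeR adjusted p = 0.827 and 0.461). Plk2 stood at 189 and 194 CPM with SPT6 siRNA, against 244 and 239 CPM with control siRNA. Pmaip1, which encodes the BH3-only protein NOXA, was too low to test, at most 0.87 CPM in any library.

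Of 18 listed genes for p53 and its regulators 16 were tested, 0 were called and 11 were below 0 (median -0.12), and in the untreated pair 14 of 16 were (median -0.13). Ppm1d, a phosphatase gene that ends p53 signalling, stood at 16.8 and 17.3 CPM with SPT6 siRNA, against 15.4 and 19.3 CPM with control siRNA. Of 10 paralogs of the members 8 were tested, 0 were called and 5 were below 0 (median -0.15), and in the untreated pair 8 of 8 were (median -0.36). Among them Ccng2 was at 0.42 ± 0.56, Cdkn1b at -0.17 ± 0.35, Btg1 at 0.21 ± 0.26 and Trp53inp2 at 0.13 ± 0.33, with every 95% interval holding 0.

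Lists next to the pathway lay more to one side. All 24 cell cycle genes of a list that p53 lowers through p21 were below 0 (52% of all genes were), with a median of -0.62, 0 called, and 11 lower at an unadjusted p under 0.05 (4.31% of all genes). The cyclin gene Ccnb1 stood at 77.4 and 76.4 CPM with SPT6 siRNA, against 98.5 and 138 CPM with control siRNA (-0.62 ± 0.21; edgeR adjusted p = 0.370). The proliferation marker gene Mki67 stood at 411 and 388 CPM with SPT6 siRNA, against 557 and 782 CPM with control siRNA (-0.75 ± 0.22; adjusted p = 0.350), and Cdk1 lay at -0.63 ± 0.26. In the untreated pair all 24 of these genes were lower with SPT6 siRNA too, with a median of -0.56. The part of p53 or p21 in these differences was not tested.

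Sesn2 and Gdf15 are also known targets of the integrated stress response through ATF4. Of 22 genes of that response 21 lay below 0 under IFN-beta (52% of all genes did), with a median of -0.43 and 0 called. At an unadjusted p under 0.05, 5 were lower (4.31% of all genes) and 1 higher (7.36%). In the untreated pair 16 of these 22 were below 0 and 6 above (median -0.19). Under IFN-beta Atf4 itself stood at 288 and 240 CPM with SPT6 siRNA, against 362 and 408 CPM with control siRNA (-0.54 ± 0.19, edgeR adjusted p = 0.374). Ddit3 lay at -0.75 ± 0.23 and Asns at -0.54 ± 0.21. Atf3 was the exception under IFN-beta, at 5.51 and 7.57 CPM with SPT6 siRNA, against 1.88 and 2.73 CPM with control siRNA (1.49 ± 0.37, edgeR adjusted p = 0.309). Among 23 tested immediate early genes, a class to which Btg2 also belongs, 16 lay above 0 under IFN-beta (48% of all genes did). Their median was 0.47, and 0 were called. At an unadjusted p under 0.05, 9 were higher (7.36% of all genes) and 1 lower (4.31%). In the untreated pair 14 of these 23 were above 0 (median 0.17). Under IFN-beta Fos lay at 1.04 ± 0.43 and Egr1 at -0.26 ± 0.41. Nr4a1 stood at 46.4 and 68.2 CPM with SPT6 siRNA, against 16.0 and 12.6 CPM with control siRNA (edgeR adjusted p = 0.238). Fibroblast markers had 9 of 10 below 0 (median -0.45).

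**Figure D5:**
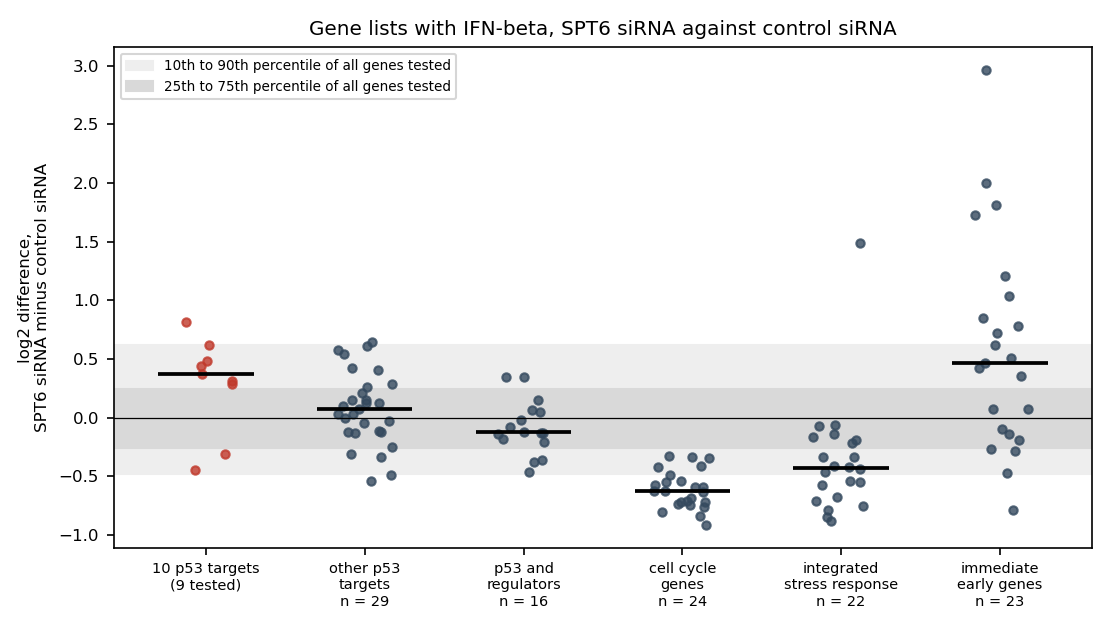
Log2 differences under IFN-beta, SPT6 siRNA minus control siRNA, with 1 point per tested gene, a bar at each list's median, and grey bands for the middle range of all 13185 genes. The 9 tested members have a median of 0.37, and the 29 other p53 targets one of 0.07. The list of p53 and its regulators has a median of -0.12, and integrated stress response genes one of -0.43. Cell cycle genes have one of -0.62 with every point below 0, and immediate early genes one of 0.47.

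Across the 6 libraries the members did not vary as 1 group. Of 36 pairs among 9 members 24 had a positive Pearson r of log2 CPM, with a median of 0.38. Cdkn1a and Rrm2b were the pair most alike (r = 0.89), followed by Trp53inp1 and Btg2 (0.85). Mdm2 and Sesn1 were the most opposed (-0.96). These points share libraries, depth and treatment and are a description over 6 libraries. Sesn1 had the widest range, 2.55 on the log2 scale, highest in the untreated control library and lowest in SPT6 siRNA IFN-beta replicate 2, and Ccng1 the narrowest, 0.45. Gene span and the log2 difference with SPT6 siRNA under IFN-beta had a Spearman rho of -0.22 over the 9 members. Among 9719 other genes with an average log2 CPM of 3 or more, those most like Cdkn1a were Pigf (r = 0.998), Mrps25 (0.995), Sgsh (0.995), Tinagl1 (0.994) and Ppif (0.994). Those most like the mean of the 9 members were Gpatch11 (0.996), Prmt10 (0.995), Wdr24 (0.991), Appl2 (0.990) and Fbxw9 (0.987). Both sets are the highest r picked from 9719 genes over 6 libraries, so their r is high by selection. A shared regulation was not tested.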

How the data were processed

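The authors deposited raw counts by gene symbol for 6 libraries, with no normalisation. Tools in the submitters' processing notes are HTSeq 0.6.1p1, TopHat2 2.1.0 and DESeq2, with builds mm10 and GRCm38 and no roles given. The annotation and strand setting are not given in the sources used here. Genes took 32.9% to 38.0% of the counted reads or pairs, and the lines that name no gene (no feature 33.8% to 37.5%, not unique 27.9% to 31.3%, ambiguous 0.326% to 0.384%) were left out.

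From the counts, edgeR 4.0.16 in R 4.3.3 (filterByExpr by group, count minimum 10, TMM, robust glmQLFit, glmQLFTest) was fitted to 4 group means over all 6 libraries, with Benjamini-Hochberg adjustment over 13185 genes and a threshold of 0.05. The fit has 2 residual degrees of freedom, both from the IFN-beta groups. The SE of a log2 difference was derived from its F statistic, intervals are 95%, and log2 CPM of single libraries use a prior count of 2. The script was tested on simulated data. Gene positions and exon lengths came from GENCODE vM21 (GRCm38), which matched 22750 of 24062 symbols (94.5%), and promoter windows from RefSeq. The exon length of a gene joins all its annotated transcripts, so levels per kb of different genes are approximate. Cdkn1a and Rrm2b overlap an annotation on the other strand, and reads of the overlapping parts cannot be told apart. Same-group libraries were not duplicates (chi-square per degree of freedom 36.9 with SPT6 siRNA and 41.8 with control siRNA). Named genes were the 10 members, genes fixed by symbol in each list, and the 5 genes most alike. Alternatives were size factors, library size only, 2 other count filters, DESeq2 1.42.0, limma-voom (limma 3.58.1), a replicate block, matched pairs, only the groups compared, removal of Rn45s, and leaving out each IFN-beta library. The members and the gene lists were chosen with earlier results of these data known.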

Additional observations from a re-analysis of the deposited data

How the results depend on the processing

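Of 360 log2 differences of members recomputed under alternatives, 329 kept their direction and their side of the threshold, 18 reversed and 13 passed the threshold, these 13 in fits with a replicate block. No member was called under the other scalings, filters and tests or with 1 IFN-beta library left out. The labels do not say what a replicate number marks. Deviations from the group means correlated at 0.56 between same-numbered IFN-beta libraries, over only 2 numbers. With the replicate block 5 members were called for SPT6 siRNA under IFN-beta (Cdkn1a, Rrm2b, Btg2 and Trp53inp1 higher, Sesn1 lower) beside 2638 genes, and with a block over 3 matched pairs 7 (Ccng1 and Sesn2 added) beside 3245 genes. The block called 0 members beside 545 genes for IFN-beta with SPT6 siRNA, 1 (Sesn1) beside 957 genes with control siRNA, and 0 beside 4 genes for the difference of responses.

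Counts of genes called moved more. For SPT6 siRNA under IFN-beta (0 called) they were 66 without a count filter and 62 with DESeq2. For IFN-beta with SPT6 siRNA (6 called) they were 12 with library size only, 46 without a filter, 129 with DESeq2, 0 with limma-voom, 11 without Rn45s, 17 with only the groups compared, and 9 to 28 with 1 library left out. With control siRNA (18 called) they were 77 without a filter, 10 at a count minimum of 30, 204 with DESeq2, 5 with limma-voom, 42 with only the groups compared, and 16 to 51 with 1 library left out. The cause was not tested.

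With 1 library left out, the SPT6 siRNA difference under IFN-beta ran from -1.39 to 0.11 for Sesn1 and from -0.099 to 0.92 for Trp53inp1. The IFN-beta response with SPT6 siRNA ran from -0.094 to 0.15 for Cdkn1a, from -0.15 to 0.066 for Ccng1, from -0.52 to 0.073 for Sesn2 and from -0.88 to 0.019 for Trp53inp1. With control siRNA it ran from -0.039 to 0.024 for Rrm2b and from -0.090 to 0.016 for Ccng1. With SPT6 siRNA the response of Cdkn1a was -0.0083 with library size only and -0.049 with the block, which also gave 0.00091 for Ccng1 and 0.013 for Trp53inp1. With control siRNA that of Rrm2b was 0.0060 with size factors, 0.016 without a filter, 0.0060 with DESeq2 and 0.0036 with only the groups compared. Untreated groups hold 1 library each, and the 17 to 46 counts of Bbc3 limit its precision.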

Other observations

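Immediate early genes, which code for early response factors such as Fos and the Egr proteins, lay mostly above 0 with IFN-beta. With SPT6 siRNA 23 of 23 tested did (50.7% of all genes), with a median log2 difference of 0.97. With control siRNA 17 of 23 did (49.4%), with a median of 0.95. Each untreated group is 1 library of replicate number 1, and 4 h in culture and IFN-beta cannot be told apart. For some genes the replicates lay far apart. With SPT6 siRNA Myc was at -0.04 in IFN-beta replicate 1 and 0.93 in replicate 2, and Klf4 at 0.32 and 1.64. With control siRNA Egr2 went the other way, at 1.53 and 0.90. None of the 23 genes was called in either comparison. At an unadjusted p under 0.05, 7 were higher with SPT6 siRNA (3.84% of all genes) and 0 lower (2.01%), and with control siRNA 9 were higher (5.29%) and 2 lower (2.94%). These 2 were Nr4a1 (-1.66) and Nr4a2 (-1.39), named after their values were seen. The difference between the siRNAs had 0 of these genes called and a median of 0.08, and ran from -0.57 to 3.58. At an unadjusted p under 0.05 it was higher for 2 of them (0.296% of all genes) and lower for 0 (0.0834%).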
